A study of Anas platyrhynchos with 2 samples.

Results

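MicroRNAs known from the nervous system were followed in small RNA from the duodenum of Jingjiang ducks, an egg-laying breed. They were taken by name from a table of 288 mature miRNAs: every entry for miR-9, miR-124, miR-128, miR-138, miR-153 and miR-219, all hairpin arms included, and the predicted miRNA novel_40, whose mature sequence was recognised as that of miR-129-5p from general knowledge alone. This gave 15 entries, 14 with chicken names, listed with the prefix gga-, and 1 predicted. The CT library was read as the transported ducks, females of 1 day of age driven for 8 h at speeds of 40 to 70 km per h over ordinary and bumpy roads. The CC library was read as the control ducks of the same sex, breed and age, which were put in the same kind of carry case and not transported. Both groups were kept under natural light and temperature, and 20 ducks were used in all. There is 1 library for each group, made from a number of ducks that the labels do not state. The library names CT and CC were matched to the groups by their final letter only, with no label behind it, and a wrong match would turn round every direction relative to transport.

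The gut wall carries its own nervous system, the enteric nervous system, whose neurons and glia lie in plexuses between the muscle layers and under the mucosa. A miRNA is a short RNA that pairs with messenger RNAs mainly through its seed, the bases 2 to 8 from the 5′ end, and lowers their translation or stability. In vertebrates miR-124 is a defining miRNA of neurons, miR-9 acts in neural progenitors and neurons, miR-128, miR-138, miR-153 and miR-129 are enriched in brain, and miR-219 promotes the maturation of myelinating glia in mammals. None of the entries is exclusive to enteric neurons. The libraries hold miRNAs of the whole tissue and no messenger RNA of a neuron or glial cell, so the cells from which these reads came were not measured.

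The table held 5272666 counts in CT and 5772509 counts in CC. Levels are given in CPM, the count per 1e6 counts of the library, and ratios as CT over CC. With 1 library per group there is no spread between replicates and no test, and the exact 95% intervals reflect counting error alone. They describe 2 libraries, not transport. No molecular identifiers are mentioned for these reads, so copies made by PCR count as separate reads. For a miRNA at 0 counts a floor of 3 counts stands in as the upper limit, which is 0.569 CPM in CT and 0.520 CPM in CC.

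The mature sequences of the entries that carry most of the results are shown as the table lists them, 5′ to 3′, with the seed in capitals.
gga-miR-128-3p: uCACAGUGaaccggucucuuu
gga-miR-9-5p: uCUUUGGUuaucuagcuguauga
novel_40: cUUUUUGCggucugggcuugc
gga-miR-9-3p: uAAAGCUAgagaaccgaaugu
gga-miR-153-3p: uUGCAUAGucacaaaaguga
gga-miR-124a-3p: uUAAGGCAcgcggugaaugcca
gga-miR-128-1-5p: cGGGGCCGuaacacugucugaga
gga-miR-128-2-5p: gGGGGCCGuuacacuguaagaga
gga-miR-138-5p: aGCUGGUGuugugaauc
The members do not form a seed family. The only seed shared by members is that of miR-128-1-5p and miR-128-2-5p, which the predicted novel_106 also carries. The seed of miR-128-3p also stands at bases 3 to 9 of miR-27b-3p, a miRNA of vessels and muscle with 8756 CPM in CT and 9255 CPM in CC. miR-124a-3p is listed with 1 more base at its 5′ end than the form usually given, which moves its seed by that base.

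The neural entries were a small part of the duodenal profile, and 3 of them held nearly all of their counts. Together the 15 entries had 10339 counts in CT and 14634 in CC, or 0.196% of the CT counts (0.192 to 0.200%) and 0.254% of the CC counts (0.249 to 0.258%). The sum was 1.29-fold lower in CT (1.26 to 1.33). It was mostly miR-128-3p, at 62.2% of the members' counts in CT and 65.0% in CC. miR-124a-3p held 0.184% of them in CT and 0.0820% in CC. A share of the library also depends on how much the other miRNAs contribute. Fewer cells of a type, less RNA per cell and more RNA from other cells cannot be told apart in whole-tissue samples. miR-128-3p, miR-9-5p and novel_40 made up 96.7% of the members' counts in CT and 97.9% in CC. The other 12 entries summed to 341 counts in CT and 302 in CC, a ratio of 1.24 (1.06 to 1.45) that rested on miR-153-3p. Without miR-153-3p the sums were 270 counts in CT and 270 in CC, a ratio of 1.09 with an interval on both sides of 1 (0.921 to 1.30). Without miR-219b, whose counts equal those of miR-219a in both libraries, the ratio, miR-153-3p included, was 1.23 (1.03 to 1.46).

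**Figure D1:**
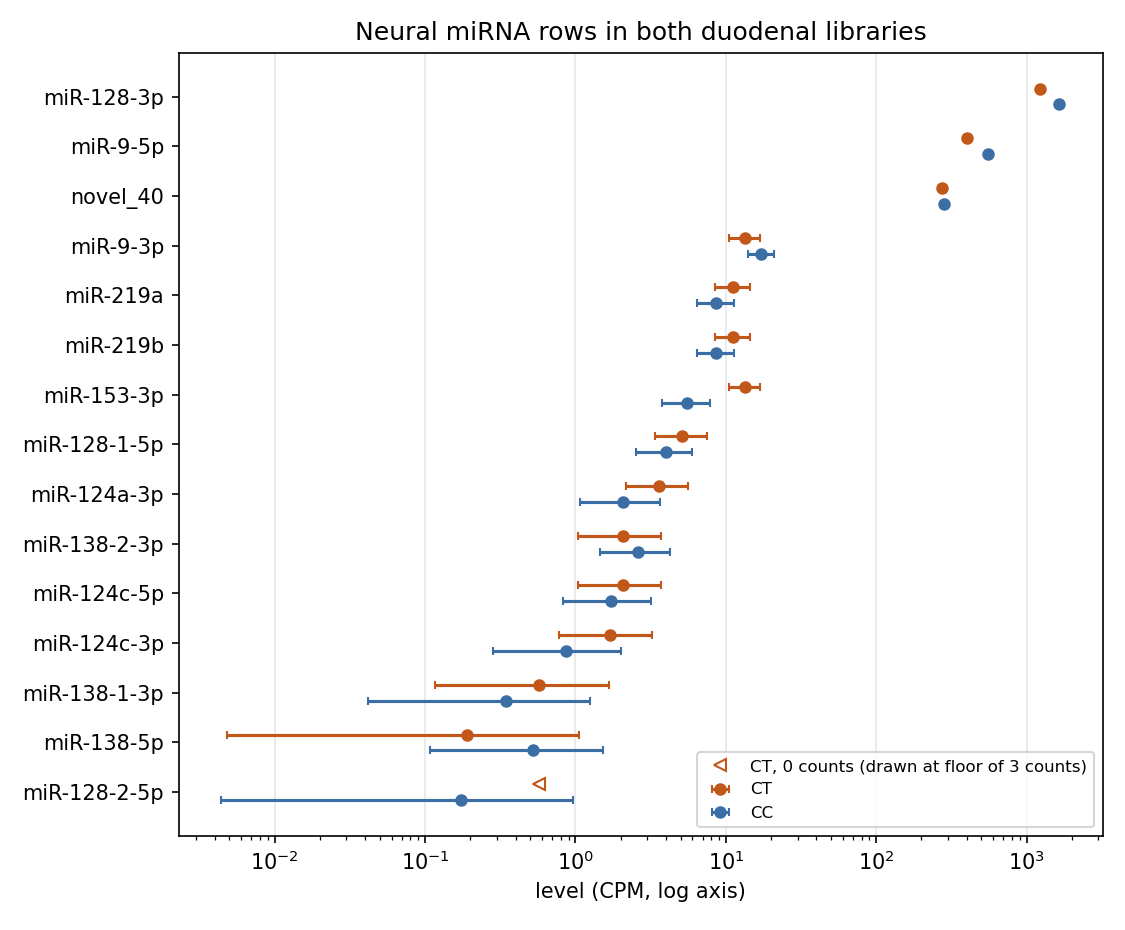
Level of each of the 15 neural entries in CPM on a log axis, with CT above CC and bars for exact Poisson 95% intervals, which cover counting error only. miR-128-3p, miR-9-5p and novel_40 lie at 274.6 CPM or higher in both libraries and every other entry at 17.2 CPM or lower. The 0 counts of miR-128-2-5p in CT are drawn at the floor of 3 counts.

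gga-miR-128-3p, written without its prefix from here on as are the others, was the most abundant member. It had 6431 counts in CT and 9511 in CC, or 1220 CPM in CT (1190 to 1250) and 1648 CPM in CC (1615 to 1681). It ranked 38th among the 288 miRNAs in CT and 35th in CC, and was 1.35-fold lower in CT (1.31 to 1.39). In mean level it lay between miR-103-3p, with 1581 CPM in CT and 1663 CPM in CC, and miR-30e-5p, with 1442 CPM in CT and 894 CPM in CC. The next entries outward were miR-140-3p above and miR-125b-5p below. Of these 4 neighbours, miR-125b-5p was lower in CT by a similar ratio (log2 ratio -0.39, -0.44 to -0.33, against -0.43, -0.48 to -0.39, for miR-128-3p), miR-103-3p was closer to equal (-0.07), and miR-140-3p (0.17) and miR-30e-5p (0.69) were higher.

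miR-9-5p, the arm of miR-9 usually described as the mature miRNA, was the next member in level. It had 2119 counts in CT and 3191 in CC, or 402 CPM in CT (385 to 419) and 553 CPM in CC (534 to 572). It was 1.38-fold lower in CT (1.30 to 1.45). Its ratio and that of miR-128-3p had overlapping intervals, and within each library the balance of the pair was nearly the same. There were 3.03 counts of miR-128-3p for each count of miR-9-5p in CT (2.89 to 3.19) and 2.98 in CC (2.86 to 3.10), a comparison that needs no scaling between libraries.

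novel_40, read as miR-129-5p, did not share that difference. It had 1448 counts in CT and 1630 in CC, or 275 CPM in CT (261 to 289) and 282 CPM in CC (269 to 296), and its ratio of 0.973 had an interval on both sides of 1 (0.905 to 1.04). Relative to novel_40 the other abundant members therefore differed between the libraries beyond counting error. miR-9-5p had 1.46 counts for each count of novel_40 in CT (1.37 to 1.57) and 1.96 in CC (1.84 to 2.08). For miR-128-3p these were 4.44 in CT (4.19 to 4.71) and 5.83 in CC (5.54 to 6.15). Within the neural entries, the share of novel_40 was 14.0% in CT (13.3 to 14.7%) and 11.1% in CC (10.6 to 11.7%).

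The hairpin predicted for novel_40 is shown because its name rests on sequence alone, with the listed mature arm in capitals.
novel_40 hairpin: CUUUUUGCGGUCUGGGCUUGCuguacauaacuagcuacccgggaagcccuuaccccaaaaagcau
It has 65 nt, a folding energy of -23.79 in the authors' deposited table (kcal per mol is the usual unit, which the table does not state), and a position of 20 to 129 on the plus strand of scaffold KB769979.1, where the table names no build. The interval spans 110 nt, more than the hairpin listed. The stretch after the loop was recognised, in the same way, as the sequence of miR-129-3p, which has no entry of its own.

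Of the 15 entries, 8 had at least 50 counts over both libraries, the minimum used for the rule of size. By that rule, a ratio of at least 2 either way, 1 of the 8 was called, higher in CT, against 7.38% of all 149 miRNAs with that many counts (6.04% higher and 1.34% lower). That is 1 entry, and a share read from 8 entries is coarse. Intervals excluded a ratio of 1 for 3 of the 8 (2 lower and 1 higher in CT), against 68.5% of the 149 (33.6% lower and 34.9% higher). Narrow intervals need many counts, and at least 500 counts were held by 3 of the 8 but by 99 of the 149. These shares therefore differ in depth and do not show that the neural entries differed less. The 8 were divided in direction, with 4 higher and 4 lower in CT, where 53% of the 149 were higher and 47% lower. The 4 higher include miR-219a and miR-219b, whose counts are equal, and the 4 lower include both arms of miR-9. The 8 are thus not 8 separate observations. Their median log2 ratio was 0.16, from -0.46 to 1.28, beside 0.02 over the 149 (interquartile range -0.25 to 0.36). The median of the members turned to -0.04 without miR-219b, so it gives no direction for the group.

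**Figure D2:**
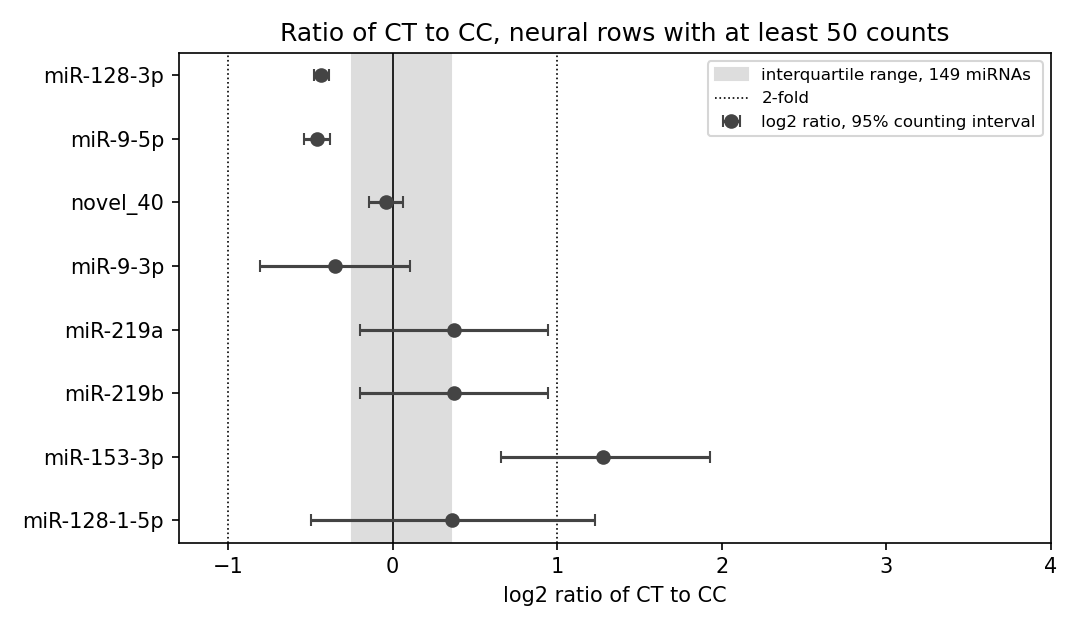
Log2 ratio of CT to CC for the 8 neural entries with at least 50 counts, with exact 95% counting intervals; the shaded band is the interquartile range of all 149 miRNAs with that many counts and the dotted lines mark 2-fold. miR-128-3p (-0.43), miR-9-5p (-0.46) and miR-9-3p (-0.35) lie left of the band, and novel_40 (-0.04) inside it. miR-219a and miR-219b (0.369 each) and miR-128-1-5p (0.362) lie just right of the band, and miR-153-3p (1.28) beyond the 2-fold line.

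The member past 2-fold was miR-153-3p, which in mammals is encoded within genes for proteins of the secretory vesicles of neurons and endocrine cells. It had 71 counts in CT and 32 in CC, or 13.5 CPM in CT (10.5 to 17.0) and 5.54 CPM in CC (3.79 to 7.83). It was 2.43-fold higher in CT (1.58 to 3.81), and the lower end of that interval is under 2-fold. On the scale of log2(CPM + 5) the difference was 0.81, under the 2-fold line of 1. Endocrine and pancreatic miRNAs were higher in CT in the same libraries. All 3 entries of the list for endocrine and sensory epithelium (miR-7, miR-183 and miR-375; miR-96 and miR-182 matched no entry) were higher, miR-183 with an interval on both sides of equal, and none was at 0 counts, with a summed level of 14437 CPM in CT and 9066 CPM in CC, led by miR-7, and log2 ratios of 0.21 to 1.48. miR-375 of that list had 3365 CPM in CT and 1206 CPM in CC. In the pancreas list 4 of 4 entries with at least 50 counts were over 2-fold higher, with a summed level of 2563 CPM in CT and 54.9 CPM in CC, led by miR-217-5p, and log2 ratios of 4.91 to 6.22 for the 3 with counts in both libraries; miR-216c was at 0 counts in CC. Over all 149 miRNAs with at least 50 counts, 53% were higher and 6.04% at least 2-fold higher in CT. The part of endocrine and pancreatic cells in the value of miR-153-3p was not tested.

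The second arm of miR-9 followed the first in direction. miR-9-3p had 71 counts in CT and 99 in CC, or 13.5 CPM in CT and 17.2 CPM in CC, and its log2 ratio of -0.35 had an interval on both sides of 0 (-0.81 to 0.11). The 5p arm held 96.8% of the counts of both arms in CT (95.9 to 97.5%) and 97.0% in CC (96.3 to 97.5%), so the arm balance did not differ at this depth. The arms are listed under different hairpin copies, mir-9-1 for the 3p and mir-9-2 for the 5p, and all 23 nt of miR-9-5p are also in the mir-9-1 hairpin. Its counts can therefore come from several copies.

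The arms of miR-128 were more unequal. The 3p arm held 99.6% of the counts of all entries named miR-128 in CT (99.4 to 99.7%) and 99.7% in CC (99.6 to 99.8%). All 21 nt of miR-128-3p are in both the mir-128-1 and the mir-128-2 hairpin, but the 5p arms differ between the copies. miR-128-1-5p had 27 counts in CT and 23 in CC, a ratio of 1.29 (0.710 to 2.35). miR-128-2-5p had 0 counts in CT and 1 in CC, so the 5p reads that name a copy were assigned to mir-128-1 in 27 of 27 cases in CT (exact interval from 87.2%) and in 23 of 24 in CC (from 78.9%). This is the assignment of the 5p arms alone, and the copy behind the 3p reads was not measured. The predicted novel_106, which carries the seed of both 5p arms, was not included in these counts or in the arm shares.

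miR-124, the most neuronal member by its known role, had few counts. miR-124a-3p had 19 counts in CT and 12 in CC, or 3.60 CPM in CT (2.17 to 5.63) and 2.08 CPM in CC (1.07 to 3.63), and ranked 157th in CT and 170th in CC. Its ratio of 1.73 had an interval from 0.799 to 3.92. miR-124c-5p had 11 counts in CT and 10 in CC, and miR-124c-3p had 9 in CT and 5 in CC. All 3 entries were higher in CT, but none reached 50 counts over both libraries. Of the 149 miRNAs with at least that many, 53% were higher. No interval of the 3 excluded a ratio of 1, so a difference was not detectable at this depth. The 3 may not be separate observations. miR-124c-5p and miR-124c-3p are arms of the same miRNA, and miR-124c-5p is complementary to miR-124a-3p over 19 nt.

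miR-138, known for its action in dendritic spines of mammalian neurons, also had few counts. miR-138-2-3p had 11 counts in CT and 15 in CC, miR-138-1-3p had 3 in CT and 2 in CC, and miR-138-5p had 1 in CT and 3 in CC. The 3p arms thus held 14 of 15 counts of miR-138 in CT and 17 of 20 in CC. miR-138-5p is the arm usually described as the mature miRNA, and the table lists it with 17 nt, shorter than the 20 to 30 nt cut from the gel. It is among 5 of the 288 entries under 20 nt. Whether the length of the entry bears on its count was not tested.

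In order of level, the members outside the abundant 3 could be ranked only in part. In CT the intervals of miR-9-3p, miR-153-3p and miR-219a overlapped, at 11.2 to 13.5 CPM. In CC the interval of miR-9-3p (13.9 to 20.9 CPM) lay above those of miR-219a (6.43 to 11.4 CPM) and miR-153-3p (3.79 to 7.83 CPM), which overlapped each other. Below them, neighbours from miR-128-1-5p to miR-128-2-5p overlapped in both libraries.

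The members included 2 pairs of entries that are reverse complements of each other, shown with the shared complementary stretch in capitals.
gga-miR-219a: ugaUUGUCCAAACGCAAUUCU
gga-miR-219b: cacaAGAAUUGCGUUUGGACAA
gga-miR-124a-3p: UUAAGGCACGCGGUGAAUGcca
gga-miR-124c-5p: CAUUCACCGCGUGCCUUAAuu
miR-219a and miR-219b are complementary over 18 nt, and all 85 nt of the mir-219a hairpin are the reverse complement of a stretch of the mir-219b hairpin of 89 nt. The entries thus stand for the 2 strands of a shared stretch. miR-219a had 59 counts in CT and 50 in CC, and miR-219b had the same 59 counts in CT and 50 in CC. Among the 149 miRNAs with at least 50 counts this was the only pair with equal counts in both libraries. With a minimum of 20 counts there were 5 sets of entries with equal counts. Only the miR-219 pair among these is complementary over at least 15 nt. Another complementary pair, miR-458a-3p and miR-458b-5p, had nearly equal counts, with 635 and 634 in CT and 421 and 420 in CC. Whether the same reads were counted under both miR-219 names was not tested, since the table holds no reads. The labels do not state whether the counting used strand. The strand from which the miR-219 reads came can therefore not be told apart, and whether the miR-219 entries are independent measurements is not known. Each miR-219 entry was at 11.2 CPM in CT (8.52 to 14.4) and 8.66 CPM in CC (6.43 to 11.4), a ratio of 1.29 (0.871 to 1.92).

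The miR-124 pair differed from this. miR-124a-3p and miR-124c-5p are complementary over 19 nt, but their counts were unequal, with miR-124a-3p at 63.3% of the pair in CT (43.9 to 80.1%) and 54.5% in CC (32.2 to 75.6%). Both intervals hold 50%. The third entry, miR-124c-3p, is the reverse complement over 21 nt of the other side of the mir-124a-2 hairpin. Every miR-124 entry of the table is therefore complementary to a hairpin of another miR-124 entry, and whether their counts came from 1 strand or both was not measured.

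**Figure D3:**
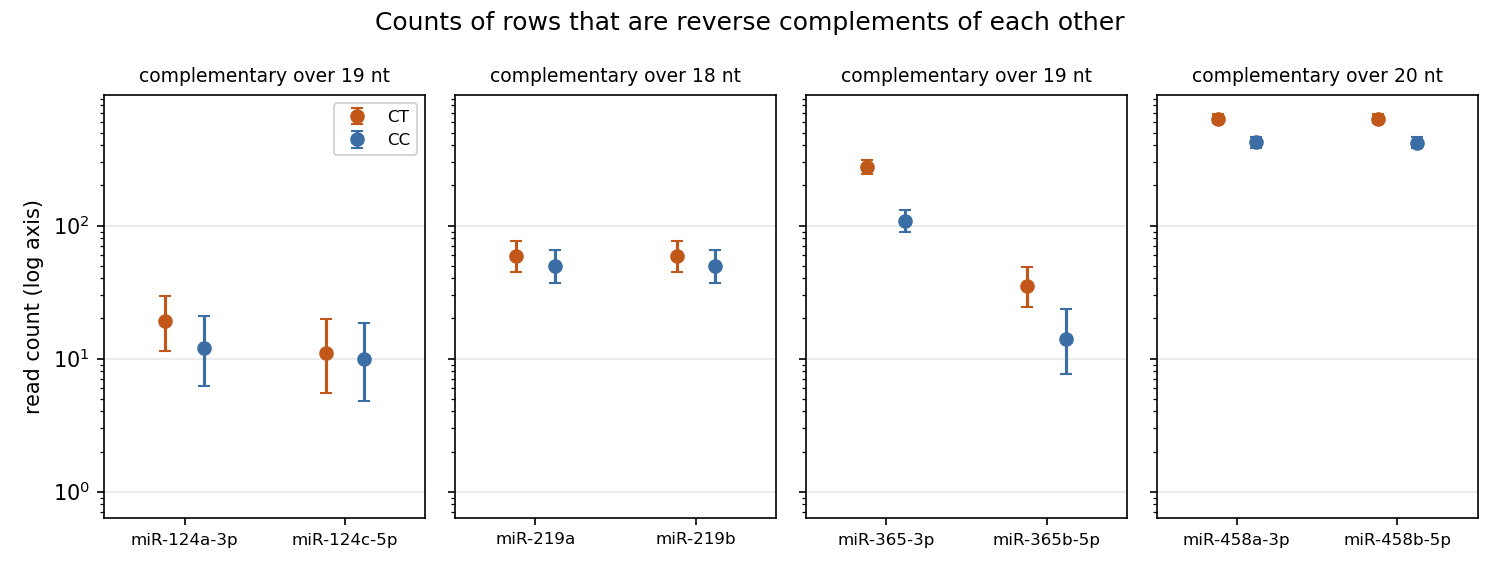
Read counts on a log axis for the 4 pairs of entries from different hairpins that are complementary over at least 15 nt, with CT left of CC and bars for exact Poisson 95% intervals. The miR-219 entries have equal counts in both libraries (59 in CT and 50 in CC), the miR-124 entries overlap, and the miR-365 and miR-458 pairs are shown for comparison.

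The abundant members were also set against the miRNAs of other cell types in the same library. The lower level of miR-128-3p and miR-9-5p in CT stood beside lower summed levels of the muscle and endothelial lists, though not of every entry. The muscle list, which includes the predicted novel_1 and novel_113 read as miR-143-3p and miR-145-5p, summed to 122823 CPM in CT and 179216 CPM in CC. Of its 8 entries with at least 50 counts, out of 11, 6 were lower in CT (log2 ratios of the 8 from -0.58 to 0.41), and miR-206 had 0 counts in CT and 1 in CC. The endothelial entries miR-126-3p and miR-126-5p summed to 5451 CPM in CT and 9301 CPM in CC. The log2 ratio was -0.79 for miR-126-3p (-0.81 to -0.76). For miR-126-5p it was -0.13, with an interval on both sides of 0 (-0.27 to 0.01). The epithelial list, led by miR-215-5p, summed to 509252 CPM in CT and 453526 CPM in CC, with 7 of 8 entries higher in CT (log2 ratios of -0.13 to 0.83). Of all 149 miRNAs with at least 50 counts, 53% were higher and 47% lower in CT. Arms of the same miRNA in these lists are not separate observations. The part of these cell types in the neural values was not tested.

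Relative to the summed muscle list the abundant members were not lower in CT, although against some single muscle miRNAs the members' sum was. For each 1000 muscle counts there were 9.93 counts of miR-128-3p in CT (9.69 to 10.2) and 9.19 in CC (9.01 to 9.38). miR-9-5p had 3.27 in CT (3.13 to 3.41) and 3.08 in CC (2.98 to 3.19), intervals that overlap, and novel_40 had 2.24 in CT and 1.58 in CC, intervals that do not. The muscle sum is mostly novel_1, at 109894 of 122823 CPM in CT and 163896 of 179216 CPM in CC. The direction depended on the muscle miRNA chosen. With all 15 entries summed, the value of CT over CC was 1.13 (1.10 to 1.16) against the whole list. It was above 1 against novel_1 (1.15), miR-1b-3p (1.11) and miR-1a-3p (1.03) alone. Against miR-133a-3p (0.861), miR-133c-3p (0.840), novel_113 (0.793) and miR-499-5p (0.762) alone it was below 1. Relative to 1000 epithelial counts miR-128-3p was lower, at 2.40 in CT (2.34 to 2.45) and 3.63 in CC (3.56 to 3.71). Relative to 1000 endothelial counts it was higher, at 224 in CT (218 to 230) and 177 in CC (173 to 181).

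**Figure D4:**
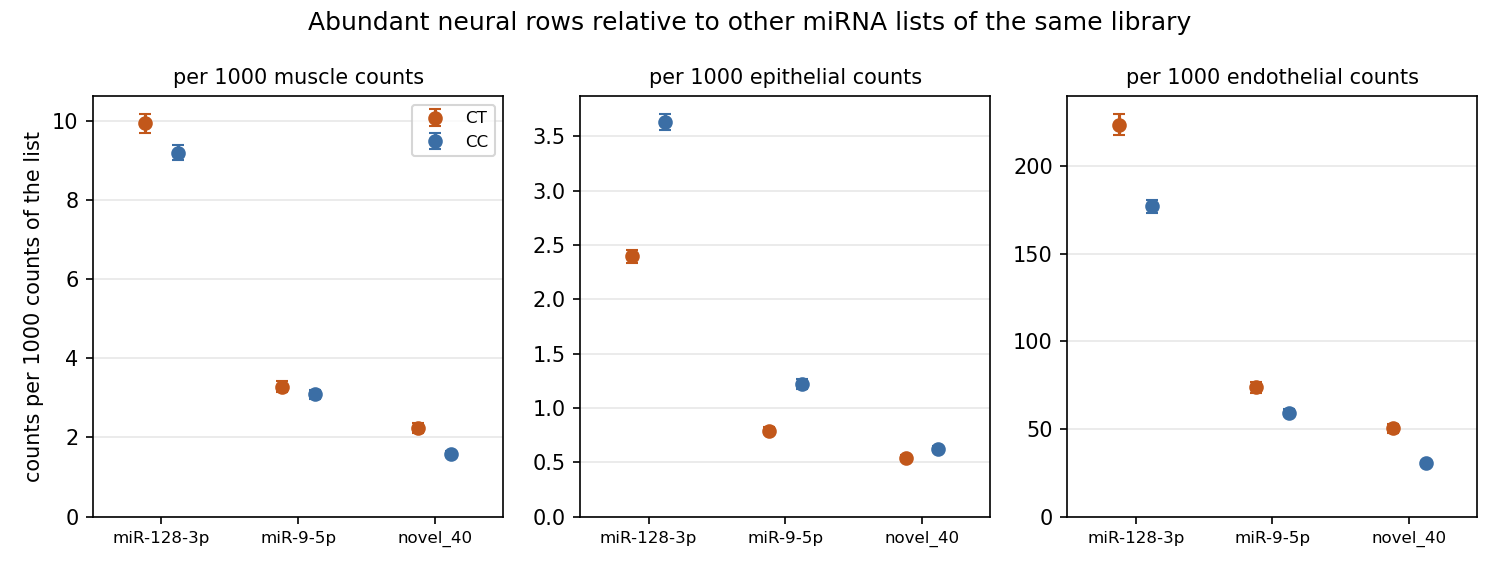
Counts of miR-128-3p, miR-9-5p and novel_40 for each 1000 counts of the muscle, epithelial and endothelial lists of the same library, with CT left of CC and bars for exact 95% intervals. miR-128-3p is at 9.93 in CT and 9.19 in CC per 1000 muscle counts, and at 2.40 in CT and 3.63 in CC per 1000 epithelial counts.

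Other miRNAs enriched in nervous tissue were also mixed. The list held miR-7, miR-125b, miR-132, miR-135a, miR-137, miR-212, miR-218 and miR-383, of which miR-132 and miR-212 matched no entry. Of 11 entries 6 had at least 50 counts, with 2 higher and 4 lower in CT and a median log2 ratio of -0.13 (-0.86 to 1.49). Of all 149 miRNAs with that many counts, 53% were higher and 47% lower in CT, with a median of 0.02. The 4 lower entries include both arms of miR-125b, which are not separate observations. Their log2 ratios were -0.39 for miR-125b-5p (-0.44 to -0.33) and -0.15 for miR-125b-3p (-0.34 to 0.04). miR-137-3p, a miRNA of neuronal maturation, had 49 counts in CT and 58 in CC. miR-218-5p, known from motor neurons and also from mesenchyme, was 1.82-fold lower in CT, at 1582 CPM in CT and 2872 CPM in CC. miR-135a-5p was 2.81-fold higher, with 95 counts in CT and 37 in CC. miR-7, which is also in the endocrine list, had the most counts of the list, at 11065 CPM in CT and 7854 CPM in CC.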

How the data were processed

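Trizol RNA (10 µg) was run on a 15% TBE-urea gel, the 20 to 30 nt fraction was kept and Illumina libraries were made from it, per the labels' protocols. The authors deposited a read count and a TPM column for each library, per the file headers. The deposited TPM equal the count per 1e6 counts within 4.31e-05, have no length term, and appear here as CPM. No aligner, miRNA predictor, database release, strand setting or build is named by the labels or headers. The folding energy is another deposited value of the authors, printed for novel_40 only.

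Ratios have exact conditional (Clopper-Pearson) 95% intervals, shares exact binomial ones and levels exact Poisson ones. All were computed on the counts with the table totals. Of the intervals only those of the ratios were tested, on simulated Poisson counts, together with the 2-fold rule. Such counts have no PCR copies and no spread between ducks, so that test covers counting error alone. Members and lists were chosen with earlier results of these data known. Every member is named, and other lists are given by counts, ranges of the log2 ratio and their leading entry. miR-137-3p, miR-218-5p, miR-135a-5p, miR-125b-3p, miR-375, miR-206, miR-216c, miR-223 and miR-451 were named after their values were seen. TMM factors came from edgeR 4.0.16 and size factors from DESeq2 1.42.0 under R 4.3.3; other steps used Python 3.11.15, numpy 2.4.6, scipy 1.17.1, pandas 2.3.3 and matplotlib 3.10.9.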

Additional observations from a re-analysis of the deposited data

How the results depend on the processing

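TMM scaling shifted every log2 ratio by -0.05, size factors by -0.06 and totals without the 10 most abundant miRNAs by 0.06. Over the 14 members with counts in both libraries, 67 of 69 recomputed log2 ratios lay within the counting interval of the reported value, which is little test where the intervals are wide: with 5 CPM added, miR-138-5p went to -0.09 and miR-124c-3p to 0.19, and both count among the 67. The other 2 were those of miR-128-3p with size factors (-0.50) and with totals without the 10 most abundant (-0.37). novel_40 was at 0.02 without the 10 most abundant, and summing arms turned the sign for miR-128-1-5p (-0.43) and miR-138-1-3p (-0.28). Summing miR-219a and miR-219b could not move their ratio, because their counts are equal. A minimum of 500 counts leaves 3 members and 99 of all miRNAs. It leaves out miR-153-3p, and 0 members were then at least 2-fold higher in CT. At least 1 count in each library leaves 14 members and 253 of all miRNAs, and 1 member was then at least 2-fold lower. That member was miR-138-5p, with 1 count in CT and 3 in CC and an interval on both sides of 1 (0.00695 to 4.54). The share of all miRNAs called at these minimums is not given here. With the minimum of 500, the median log2 ratio was -0.43 over the 3 members and -0.01 over the 99. The summed share was 0.169% in CT and 0.225% in CC without novel_40, 0.0741% in CT and 0.0887% in CC without miR-128-3p, and 1.35% in CT and 1.67% in CC with totals without the 10 most abundant. Members per 1000 muscle counts, CT over CC, were 0.861 with miR-133a-3p alone, 0.840 with miR-133c-3p, 1.03 with miR-1a-3p, 0.762 with miR-499-5p and 0.793 with novel_113; muscle entries under 500 counts were not run alone. Leaving out miR-219b and leaving out miR-153-3p were chosen after seeing the data. No paired analysis was possible because each group has 1 library. Depth limits miR-124 and miR-138, whose entries had at most 19 counts in a library.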

Other observations

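Complementary entries were also found outside the neural miRNAs. miR-458a-3p and miR-458b-5p, complementary over 20 nt, had 635 and 634 counts in CT, against 421 and 420 in CC. miR-365-3p and miR-365b-5p, complementary over 19 nt, were unequal, with miR-365-3p at 88.7% of the pair in CT (84.6 to 92.0%) and 88.6% in CC (81.6 to 93.6%). Of the 4 pairs of entries from different hairpins that are complementary over at least 15 nt, 2 had counts within 1 of each other in both libraries. How the reads of such pairs were assigned was not tested.

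Blood cell miRNAs had low levels. The white blood cell list, which includes the predicted novel_168 close to miR-155, summed to 193 CPM in CT and 165 CPM in CC, led by miR-142-3p. Of its 4 entries with at least 50 counts, both miR-142 arms (log2 ratios 0.33 for 3p and 0.34 for 5p) and novel_168 (0.34) were higher in CT, whereas miR-223 was lower, with 56 counts in CT and 121 in CC (log2 ratio -0.98, -1.46 to -0.51). The red blood cell list summed to 1.90 CPM in CT and 3.29 CPM in CC, with miR-144-3p at 7 counts in CT and 9 in CC and miR-451 at 3 counts in CT and 10 in CC.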
